A study of Mus musculus with 6 samples.

Results

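Mast cell genes were examined in the sorted CD31+ peritoneal fraction of saline-treated and PD fluid-treated mice, which the study calls endothelial cells (ECs). The group held 10 genes out of 22183 in the deposited table, taken by gene symbol: the growth factor receptor gene Kit, the granule protease genes Cpa3, Cma1, Mcpt4 and Tpsb2, the IgE receptor subunit genes Fcer1a and Ms4a2, the histamine-forming enzyme gene Hdc, the secretagogue receptor gene Mrgprb2 and the alarmin gene Il33. All 10 were found, and each passed the filter on low counts. RNA came from 3 mice given daily intraperitoneal PD fluid for 6 weeks and from 3 sham mice given saline over the same 6 weeks, with a library for each mouse. All mice were wild-type (WT) males on the C57BL/6J background, 8 to 10 weeks old, and the PD fluid was a glucose-based dialysate. The sample labels describe magnetic sorting of CD31+ cells from peritoneal tissue, whereas the study's supplementary methods describe CD31+ CD45- cells sorted from digested mesentery. The libraries hold RNA of the whole sorted fraction of each mouse.

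Mast cells are tissue-resident leukocytes that arise from bone marrow progenitors and settle along small vessels, in the mesentery and on other serous surfaces. They depend on stem cell factor acting on KIT, carry IgE on a high-affinity receptor, and store histamine and serine proteases on heparin in their granules. Mast cells of connective tissue carry tryptase, chymase and carboxypeptidase A3 and respond to basic peptides through MRGPRB2, whereas mucosal mast cells of the gut carry other chymases such as MCPT1 and MCPT2. IL-33 is different in origin: it is stored in the nuclei of endothelial, stromal and epithelial cells, and mast cells respond to it through the receptor encoded by Il1rl1. Of the list, Il33 is thus a signal to mast cells and not a mast cell marker.

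The sorted fraction held much leukocyte RNA. Total counts ran from 21973426 to 26374292 reads per mouse, and no library was set aside. Levels are given as CPM, read counts divided by library size after TMM scaling, which sets the libraries to a common size by the bulk of their genes. Pecam1, which encodes CD31, was at 469 ± 19.4 CPM in saline mice against 514 ± 7.85 CPM in PD mice, and Ptprc, which encodes CD45, was at 2373 ± 127 and 1473 ± 63.6 CPM (mean ± SD, n = 3 per group). The 12 endothelial markers had summed levels of 1153 to 1163 CPM in saline mice against 1845 to 1952 CPM in PD mice. The 4 pan-leukocyte genes, Ptprc among them, summed to 5386 to 5618 and 4190 to 4323 CPM. Mast cells carry CD45, so a gate on CD45- cells would remove them. In bulk RNA such as this, fewer cells of a type and less RNA per cell cannot be told apart.

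The DNA just upstream of RefSeq starts of the protease genes and of Hdc is shown first. These genes carry the main contrast among the members, between Hdc and the proteases. RefSeq start sites (GRCm38.p6) were found for 9 of the 10 members, and Tpsb2 had no entry. Each line is the 250 bases before the start on the strand of the gene, 5′ to 3′. Capitals mark GATAA or its reverse form TTATC, a form of the letters that GATA factors recognise. The form GATAG was not searched for. The windows are chr3:20242182-20242431 for Cpa3, chr14:55944676-55944925 for Cma1, chr14:56062311-56062560 for Mcpt4 and chr2:126618679-126618928 for Hdc, all on the minus strand.
Cpa3: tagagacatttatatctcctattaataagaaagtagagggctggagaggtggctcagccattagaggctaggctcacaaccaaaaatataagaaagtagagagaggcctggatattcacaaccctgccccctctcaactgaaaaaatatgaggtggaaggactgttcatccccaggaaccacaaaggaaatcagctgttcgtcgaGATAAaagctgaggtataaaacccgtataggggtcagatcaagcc
Cma1: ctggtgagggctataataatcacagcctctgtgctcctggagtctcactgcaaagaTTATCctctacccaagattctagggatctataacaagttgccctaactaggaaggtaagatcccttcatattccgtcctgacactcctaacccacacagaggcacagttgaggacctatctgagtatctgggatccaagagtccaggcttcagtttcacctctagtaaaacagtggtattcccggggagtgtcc
Mcpt4: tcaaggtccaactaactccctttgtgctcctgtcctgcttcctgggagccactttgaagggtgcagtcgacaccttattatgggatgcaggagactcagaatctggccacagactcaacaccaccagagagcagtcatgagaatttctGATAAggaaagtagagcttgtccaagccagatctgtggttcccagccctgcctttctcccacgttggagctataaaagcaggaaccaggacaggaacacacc
Hdc: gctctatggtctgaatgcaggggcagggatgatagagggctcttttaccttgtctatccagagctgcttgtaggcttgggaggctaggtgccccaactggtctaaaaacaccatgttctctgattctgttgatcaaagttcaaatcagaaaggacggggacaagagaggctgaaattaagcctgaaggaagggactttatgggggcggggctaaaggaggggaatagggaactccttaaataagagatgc
Cpa3, Cma1 and Mcpt4 each held GATAA in 1 place on either strand, beginning 45, 194 and 102 bases before the start. The Hdc window held none. That window precedes the RefSeq start but lies inside the GENCODE span of Hdc (126593667 to 126619299). The bases before the GENCODE start of Hdc were not examined. Over the 11 annotated starts of the 9 members, 7 windows in 7 genes held these letters, against 22.6% of 32851 promoter windows of the same length in the RefSeq table. Both Kit windows lacked them. The letters CATGTG, searched on both strands as an E-box form that MITF can bind, were in 1 of the 11 windows, that of Fcer1a, against 12.3% of all windows. The letters CACGTG were in 0 of the 11, against 6.02%. In the windows shown GATAA was the only one of the 3 motifs, so no 2 motifs overlapped.

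In PD mice 8 of the 10 genes were higher than in saline mice on the TMM scale, though with the libraries scaled to the endothelial markers 9 of the 10 had the opposite sign. The 8 were Hdc, Kit, Mcpt4, Tpsb2, Cma1, Fcer1a, Il33 and Cpa3, each past the 0.05 threshold of the edgeR quasi-likelihood test after Benjamini-Hochberg adjustment over all 14005 genes tested. Hdc stood apart at 3.74-fold, and the other 7 rose between 1.24-fold and 1.78-fold. None of the 10 was lower, and none was lower at an unadjusted p under 0.05 or by DESeq2 or limma-voom. Higher calls were common in this comparison: 31.1% of all genes tested were called higher and 27.8% lower. The median log2 fold change was 0.71 over the 10 genes and 0.02 over all genes tested. Summed over the 10 genes, levels were 278 to 287 CPM in saline mice against 431 to 490 CPM in PD mice.

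**Figure D1:**
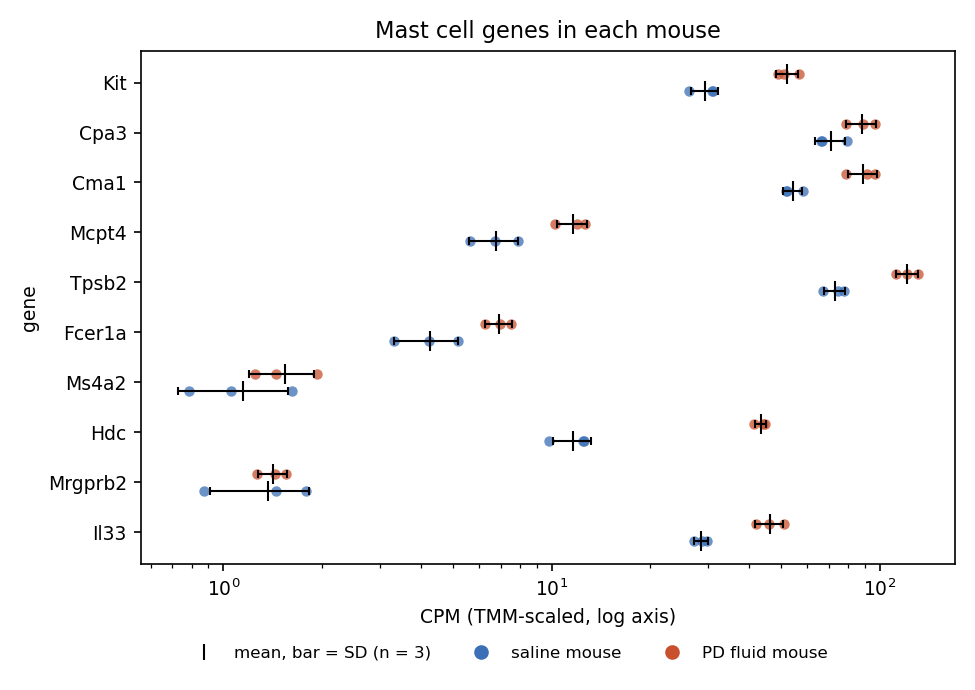
CPM of each mast cell gene in each mouse on a log axis, with saline mice in blue, PD fluid mice in orange, and the mean and SD (n = 3 mice) in black. All 3 PD mice lie above all 3 saline mice for 7 genes on this TMM scale, whereas Cpa3, Ms4a2 and Mrgprb2 overlap; with scaling to endothelial markers the direction turns for all but Hdc.

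For 7 of the 10 genes, all 3 PD mice lay above all 3 saline mice, which was so for 34.0% of all genes tested. The 3 genes whose groups overlapped were Cpa3, Ms4a2 and Mrgprb2. Leaving out each mouse in turn kept between 7 and 8 genes called higher.

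Tpsb2, Cma1 and Cpa3 were the most abundant members in both groups. Tpsb2 (ENSMUSG00000033825, chromosome 17, 25366305 to 25369098; positions here are those of GENCODE M21 on GRCm38, matched by identifier) encodes a mast cell tryptase. It was at 74.6, 67.1 and 77.6 CPM in the saline mice and 112, 121 and 131 CPM in the PD mice. Every PD mouse was well above every saline mouse. Its log2 fold change was 0.73 (standard error 0.08, edgeR adjusted p = 2.58e-05). Cma1 (ENSMUSG00000022225, chromosome 14, 55941451 to 55944675) is a chymase family gene of connective tissue mast cells. It was at 51.9, 58.5 and 52.3 CPM in saline mice against 79.1, 91.2 and 96.8 CPM in PD mice. The groups did not overlap, and the log2 fold change was 0.72 (standard error 0.09, edgeR adjusted p = 5.98e-05).

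Mcpt4 (ENSMUSG00000061068, chromosome 14, 56059629 to 56062313), a second chymase of the same locus, was less abundant. It was at 7.93, 6.73 and 5.63 CPM in saline mice against 11.9, 12.7 and 10.2 CPM in PD mice. The groups were again separate, and the log2 fold change was 0.78 (standard error 0.16, edgeR adjusted p = 0.00172). Cpa3 (ENSMUSG00000001865, chromosome 3, 20215620 to 20242181), the granule carboxypeptidase, was at 66.8, 79.7 and 66.4 CPM in saline mice against 79.0, 88.6 and 97.1 CPM in PD mice. The highest saline mouse lay just above the lowest PD mouse. The log2 fold change of Cpa3 was 0.31 (standard error 0.10, edgeR adjusted p = 0.0166). Its call was lost without saline mouse 1 (edgeR adjusted p = 0.0665), without saline mouse 3 (0.0621) and without PD mouse 3 (0.0587). The tryptases and the chymases are families of close copies, so reads may be shared between Tpsb2 and Tpsab1 and among the chymases.

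Kit (ENSMUSG00000005672, chromosome 5, 75574916 to 75656722), the receptor for stem cell factor, was at 31.1, 26.1 and 30.7 CPM in saline mice against 56.7, 49.1 and 51.0 CPM in PD mice. The PD mice were all higher, with a log2 fold change of 0.83 (standard error 0.10, edgeR adjusted p = 3.19e-05). Among the IgE receptor genes, Fcer1a (ENSMUSG00000005339, chromosome 1, 173221284 to 173227214), the IgE-binding subunit, was at 5.19, 4.24 and 3.31 CPM in saline mice against 6.25, 7.55 and 6.98 CPM in PD mice. These groups did not overlap, and the log2 fold change was 0.70 (standard error 0.19, edgeR adjusted p = 0.00921). Ms4a2 (ENSMUSG00000024680, chromosome 19, 11615523 to 11623719), the signal-amplifying beta subunit, had few reads, 27, 35 and 19 reads in saline mice and 34, 46 and 32 in PD mice. Its groups overlapped, and the log2 fold change of 0.43 was not past the threshold (95% interval -0.36 to 1.21, edgeR adjusted p = 0.320). Mrgprb2 (ENSMUSG00000050425, chromosome 7, 48550965 to 48558086), the receptor for basic secretagogues, had 37, 19 and 43 reads in saline mice and 39, 37 and 28 in PD mice. Neither group was the higher one, with a log2 fold change of 0.05 (95% interval -0.68 to 0.78, edgeR adjusted p = 0.912). At this depth the intervals of Ms4a2 and Mrgprb2 include the change seen in Tpsb2, so neither gene can be said to differ from it on this measure.

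Hdc (ENSMUSG00000027360, chromosome 2, 126593667 to 126619299), which encodes the enzyme that makes histamine from histidine, changed most of the 10. It was at 9.84, 12.5 and 12.5 CPM in saline mice against 41.5, 44.8 and 44.0 CPM in PD mice. Both groups were tight, and the lowest PD mouse was far above the highest saline mouse. Its log2 fold change was 1.90 (standard error 0.11, edgeR adjusted p = 1.42e-07), and it ran from 1.80 to 1.96 when mice were left out 1 at a time. Il33 (ENSMUSG00000024810, chromosome 19, 29925114 to 29960718) was at 28.7, 29.7 and 27.1 CPM in saline mice against 41.8, 45.9 and 51.0 CPM in PD mice. The PD mice were all higher, and the log2 fold change was 0.70 (standard error 0.09, edgeR adjusted p = 0.000104).

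**Figure D2:**
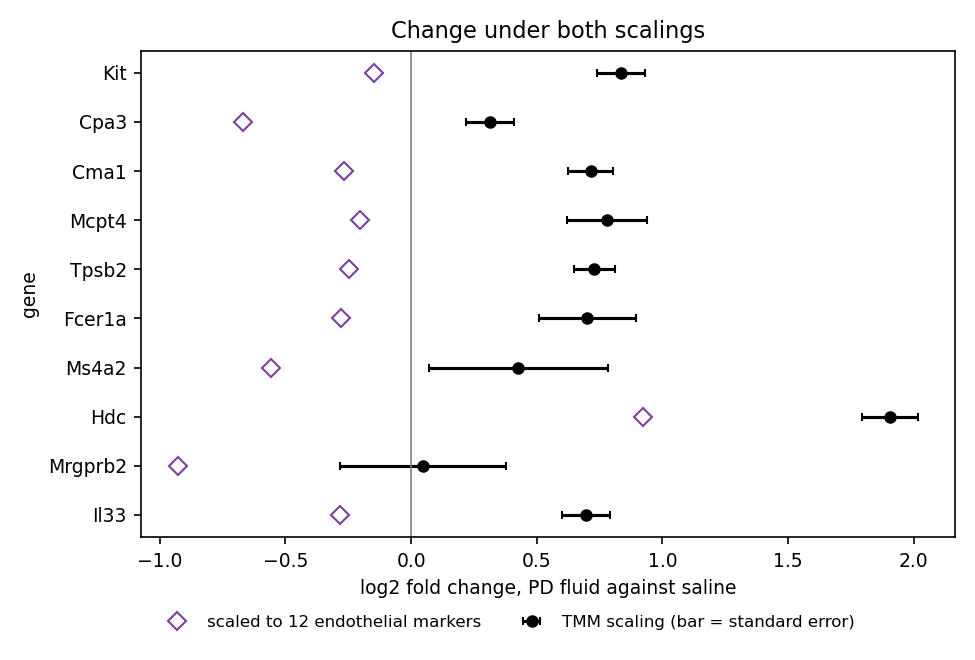
Log2 fold change of each gene, PD fluid against saline, with TMM scaling (black, bar = standard error) and with the libraries scaled to 12 endothelial markers (open diamonds, drawn without error). TMM values lie between 0.05 and 1.90, whereas 9 of the 10 diamonds lie below 0 and that of Hdc lies at 0.92.

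The 12 endothelial markers rose themselves, by a median of 0.96 on the log2 scale, with 11 of the 12 called higher. Scaled to them, the median log2 fold change of all genes tested shifted to -0.96, with 72.3% of genes called lower and 8.21% higher. On that scale 1 member, Hdc, was called higher (log2 fold change 0.92, edgeR adjusted p = 3.32e-06) and 5 were called lower, namely Cpa3, Cma1, Tpsb2, Mrgprb2 and Il33. The median of the 10 was -0.27, above the shifted median of all genes.

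Ratios between members within a library do not depend on scaling. Reads of each of the other 9 genes were taken per 100 Tpsb2 reads of the same mouse, and the 9 ratios were tested by exact permutation (2-sided), where the smallest p that groups of 3 can give is 0.1. For every 100 Tpsb2 reads there were 13.2, 18.6 and 16.2 Hdc reads in saline mice and 37.1, 37.0 and 33.7 in PD mice. The groups were far apart, with a difference of 1.18 on the log2 scale (exact permutation p = 0.1, 0.3 after Benjamini-Hochberg adjustment over the 9 ratios). Cpa3 went the other way, at 89.5, 119 and 85.5 reads in saline mice and 70.6, 73.2 and 74.3 in PD mice. Those groups did not overlap either, with a difference of -0.41 (exact permutation p = 0.1, adjusted 0.3). Mrgprb2, from few reads, was at 1.31 to 2.29 in saline mice and 0.97 to 1.28 in PD mice (exact permutation p = 0.1, adjusted 0.3). The ratios of Kit, Cma1, Mcpt4, Fcer1a, Ms4a2 and Il33 overlapped between the groups, with differences from -0.27 to 0.11. For Cma1 the mean was 74.7 ± 10.9 reads per 100 in saline mice and 73.4 ± 2.40 in PD mice (mean ± SD, n = 3 per group).

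**Figure D3:**
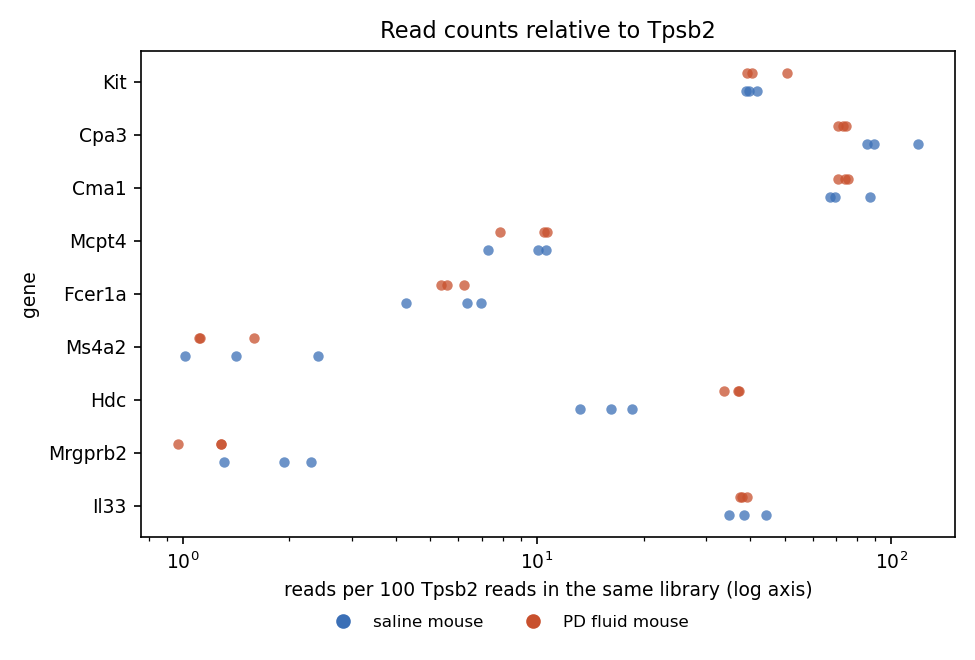
Reads of the other 9 genes per 100 Tpsb2 reads in the same library, on a log axis, with a point for each mouse. Hdc is higher in all 3 PD mice, at 33.7 to 37.1 against 13.2 to 18.6, Cpa3 and Mrgprb2 are lower in all 3, and the other 6 genes overlap.

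The order of the members can be compared per transcript length, in the FPKM values of the deposited table. In saline mice Tpsb2 led at 66.0 ± 5.77 FPKM, followed by Cma1 at 50.3 ± 2.99 and Cpa3 at 48.8 ± 4.78, which overlapped (mean ± SD, n = 3 per group). Il33 stood alone at 11.2 ± 0.44 FPKM. Mcpt4, Kit, Hdc and Fcer1a followed between 6.08 and 4.24 FPKM, each overlapping its neighbour. Mrgprb2 and Ms4a2 were last, at 0.66 and 0.63 FPKM, and overlapped. In PD mice the first 3 were in the same order but no longer overlapped, at 110 ± 5.59, 83.0 ± 6.30 and 61.0 ± 4.63 FPKM. Hdc, the seventh in saline mice, was at 18.2 ± 0.50 FPKM in PD mice and overlapped Il33 at 18.3 ± 1.33. As a description over the 6 mice, the profile most like that of Tpsb2 in log2(CPM + 1) was that of Hdc (Pearson r = 0.96), Kit was most like Tpsb2 (r = 0.95), and Cma1 and Il33 were most like each other (r = 0.99). The 6 points share the split between the groups. Mrgprb2 had no close match, at most r = 0.29.

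Of a further 18 genes of mast cell identity and granules, 14 were tested, 8 were higher in PD mice on the TMM scale and none was lower, with a median log2 fold change of 0.81. The share of all genes tested was 31.1% higher. On the endothelial scale 3 genes of the list were higher and 5 lower, beside 8.21% of all genes tested higher and 72.3% lower. At an unadjusted p under 0.05, 2 were lower, and DESeq2 and limma-voom each called 1 lower. Gata2, a transcription factor that mast cells require and that ECs also express, was at 10.9 ± 2.77 CPM in saline mice against 29.2 ± 1.27 CPM in PD mice (log2 fold change 1.41, edgeR adjusted p = 3.08e-05). Tpsab1, the paralog of Tpsb2, rose by a log2 fold change of 0.68 (standard error 0.18, edgeR adjusted p = 0.00828), close to that of Tpsb2. Ctsg, a granule protease of mast cells and neutrophils, had 4, 0 and 5 reads in saline mice and 40, 36 and 22 in PD mice (edgeR adjusted p = 0.000664). Tpsg1, a membrane-bound tryptase, had 13, 4 and 0 reads in saline mice and 28, 26 and 16 in PD mice (edgeR adjusted p = 0.0269). Ctsd, a lysosomal protease made by many cells, had a log2 fold change of 1.88 (edgeR adjusted p = 1.23e-08). The mucosal chymase genes Mcpt1 and Mcpt2 were almost silent. Mcpt1 had 0, 0 and 4 reads against 8, 10 and 8, and Mcpt2 had 1, 1 and 0 against 4, 7 and 4. Mcpt9, a further gene of the list, had 0 reads in all 6 mice. These 3 genes and Cma2 had too few reads to be tested. Neither Slc18a2, the histamine-loading transporter of granules (log2 fold change 0.34, edgeR adjusted p = 0.133), nor Srgn, the granule proteoglycan (-0.17, edgeR adjusted p = 0.0687), passed the threshold.

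Signals that act on mast cells were also measured. Kitl, which encodes stem cell factor, was at 74.2 ± 8.54 CPM in saline mice against 100 ± 9.66 CPM in PD mice (mean ± SD, n = 3 per group), a log2 fold change of 0.43 (standard error 0.10, edgeR adjusted p = 0.00301) that turned to -0.55 on the endothelial scale. Il1rl1, the IL-33 receptor, rose on the TMM scale from 21.1 ± 1.01 to 43.4 ± 1.98 CPM (mean ± SD, n = 3 per group). Its log2 fold change on that scale was 1.04 (standard error 0.09, edgeR adjusted p = 2.47e-06). Of the 11 genes of the stem cell factor and IL-33 axis, 10 were tested, 4 were higher and 2 lower, with a median of 0.20. These counts were near the shares over all genes tested (31.1% higher and 27.8% lower). On the endothelial scale 1 was higher and 7 were lower, near the shares of all genes on that scale (8.21% higher and 72.3% lower). Besides Kitl and Il1rl1 the higher genes were Il17rb, a subunit of the IL-25 receptor (1.71, edgeR adjusted p = 5.00e-05), and the adaptor gene Myd88. The lower genes were Traf6 and the co-receptor gene Il1rap (-0.26, edgeR adjusted p = 0.0313).

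IgE receptor signalling genes are shared by most leukocytes. All 16 were tested, 5 were higher and 7 lower, with a median log2 fold change of 0.11. The higher share was close to the 31.1% of all genes tested, beside 27.8% lower. On the endothelial scale 2 were higher and 14 lower, beside 8.21% of all genes tested higher and 72.3% lower. Fcer1g, the signalling chain that the IgE receptor shares with Fc receptors of macrophages, rose from 72.6 ± 8.0 to 208 ± 7.51 CPM (mean ± SD, n = 3 per group; log2 fold change 1.52, edgeR adjusted p = 8.33e-08). Gab2, an adaptor downstream of the receptor, had a log2 fold change of 1.94 (edgeR adjusted p = 3.73e-06). Orai1, the calcium channel opened after receptor activation, had a log2 fold change of 0.68 (edgeR adjusted p = 0.000150). The linker gene Lat2 fell by 1.12 on the log2 scale (edgeR adjusted p = 9.34e-08), and the kinase gene Btk, which B cells also use, fell by 0.65 (edgeR adjusted p = 1.74e-05).

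Genes for histamine handling and lipid mediators were examined beside Hdc. Of 9 genes for histamine receptors, transport and breakdown, 7 were tested and 3 were higher: the inactivating methyltransferase gene Hnmt (log2 fold change 2.0, edgeR adjusted p = 4.83e-06), the receptor gene Hrh1 (1.31, edgeR adjusted p = 0.000284) and the dehydrogenase gene Aldh7a1. Among all genes tested 31.1% were higher. On the endothelial scale 1 of the 7 was higher and 1 lower, beside 8.21% of all genes tested higher and 72.3% lower. None was lower in edgeR with TMM scaling, although 1, Hrh2, was at an unadjusted p under 0.05 and was called lower by DESeq2 and not by limma-voom. The oxidase gene Aoc1 had 0 reads in the 3 saline mice and 8, 9 and 12 in the PD mice, too few to be tested. Of 10 genes for prostaglandins and leukotrienes, 9 were tested. On the endothelial scale, where 8.21% of all genes tested were higher, 5 of the 9 were higher. On the TMM scale 9 were higher, with a median of 1.33. They included Ltc4s, which makes leukotriene C4 (2.11, edgeR adjusted p = 2.75e-07), Alox5, the 5-lipoxygenase (2.10, edgeR adjusted p = 3.98e-09), its partner Alox5ap (1.79, edgeR adjusted p = 8.46e-08) and the inducible cyclooxygenase gene Ptgs2 (1.49, edgeR adjusted p = 3.25e-05). Macrophages express most of these lipid mediator genes as well.

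**Figure D4:**
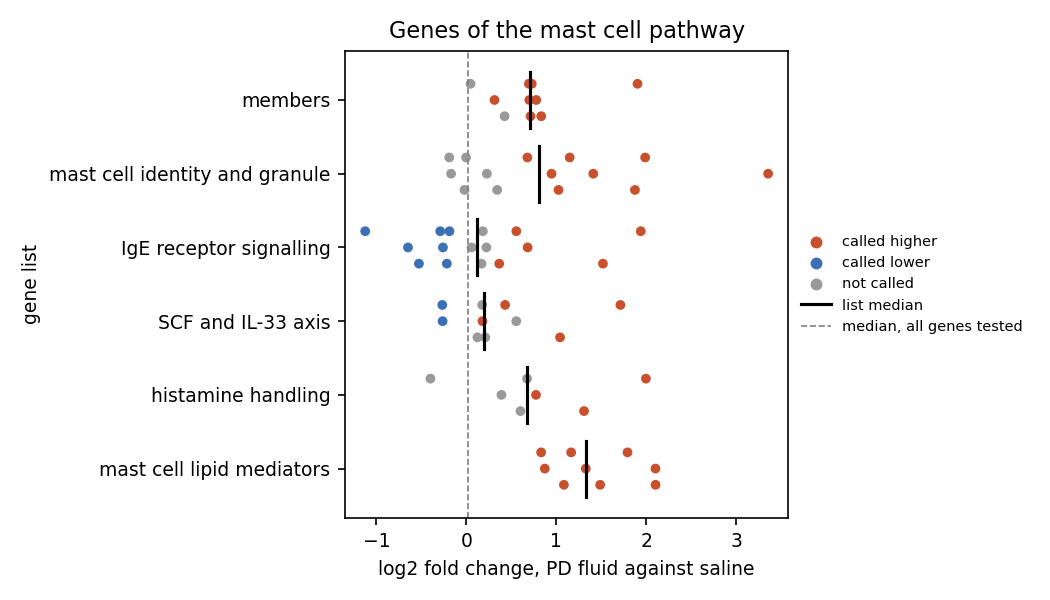
Log2 fold change (TMM scaling) of each tested gene of the 10 mast cell genes and of 5 further lists, coloured by its call, with the list median as a black line and the median of all genes as a dashed line. Lipid mediator genes lie between 0.83 and 2.11, whereas IgE receptor signalling genes spread from -1.12 to 1.94; scaling to endothelial markers lowers the median of all genes by about 0.96.

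Markers of other cells that could supply these transcripts moved too. Their calls are on the TMM scale, where 31.1% of all genes tested were higher and 27.8% lower. They were not counted on the endothelial scale. Basophils share Fcer1a, Ms4a2 and Hdc with mast cells, and 4 of 7 basophil markers were higher, among them Prss34 (log2 fold change 2.30, edgeR adjusted p = 1.29e-06) and Mcpt8 (2.12, edgeR adjusted p = 0.00112). The summed basophil markers were at 10.6 to 12.8 CPM in saline mice against 26.4 to 30.1 CPM in PD mice, and none was at 0 in all mice. The basophil growth factor receptor gene Il3ra had a log2 fold change of 0.84. Cd200r3 went the other way but was not called (log2 fold change -0.24, edgeR adjusted p = 0.524), and neither Itga2 nor Il4 was called. Macrophages can also make histamine, and 8 of 8 macrophage markers were higher, with sums of 2377 to 2524 CPM and 9944 to 10743 CPM and none at 0. The part of either cell type in the rise of Hdc was not tested. For Kit, 3 of 4 tested markers of interstitial cells of Cajal were higher, a count that includes Kit itself, beside Ano1 (1.77) and Etv1 (1.3), and the sums were 161 to 168 CPM and 190 to 205 CPM; most of each sum was Prkcq, which T cells also express. Of 8 tested markers of type 2 innate lymphoid cells, which carry Il1rl1, 6 were higher, a count that includes Il1rl1 itself. The sums of that list, also with Il1rl1, were 309 to 349 CPM and 386 to 429 CPM. The most abundant marker of that list, Il7r, was at 204 and 214 CPM and was not called. The part of these cell types in Kit and Il1rl1 was not tested.

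Markers of stromal and other cells that can store IL-33 are given beside Il33. These calls too are on the TMM scale, beside 31.1% of all genes tested higher and 27.8% lower, and were not counted on the endothelial scale. All 8 fibroblast markers were higher, with sums of 94.95 to 103 CPM in saline mice against 853 to 889 CPM in PD mice, and so were all 7 mesothelial markers, at 13.6 to 17.3 and 151 to 175 CPM. Fibroblastic reticular cell markers were higher in 4 of 5 genes, with sums of 91.9 to 102 and 727 to 832 CPM. All 6 lymphatic endothelial markers were higher, at 156 to 171 and 626 to 715 CPM, as were all 7 smooth muscle and pericyte markers, at 274 to 295 and 442 to 492 CPM. No marker of these 5 lists was at 0 in all mice. Their part in the level of Il33 was not tested. By contrast, 6 of 6 B cell markers were lower, from 5828 to 6104 down to 2767 to 2803 CPM in sum, 3 of 6 T cell markers were lower (1332 to 1414 and 1112 to 1218 CPM), and 3 of 4 pan-leukocyte genes were lower (5386 to 5618 and 4190 to 4323 CPM). Pancreatic acinar genes went from 2.15 to 5.35 CPM in saline mice to between 6075 and 6977 CPM in PD mice, with 8 of 8 higher.

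**Figure D5:**
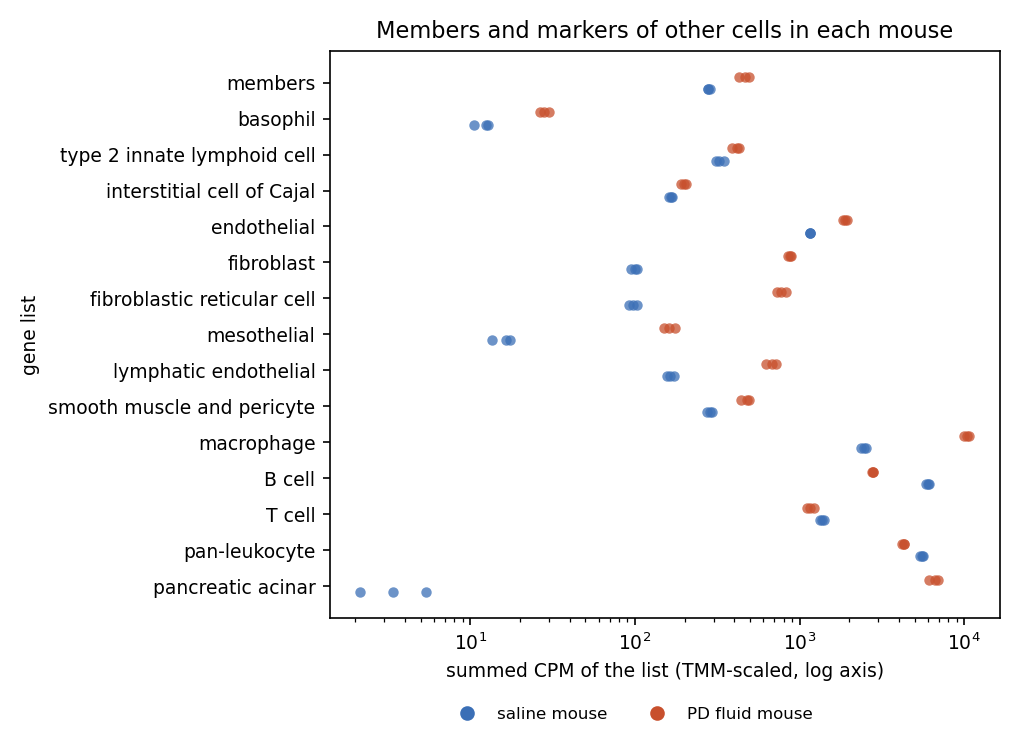
Summed CPM (TMM scaling, log axis) of the 10 mast cell genes and of markers of other cells, with a point for each mouse. The mast cell genes lie at 278 to 287 CPM in saline mice against 431 to 490 CPM in PD mice, a smaller step than those of fibroblast, mesothelial and macrophage markers, while B cell markers lie lower in PD mice.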

How the data were processed

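RNA of the sorted CD31+ peritoneal fraction from 3 saline and 3 PD mice was sequenced on an Illumina NovaSeq platform after poly(A) selection. The authors deposited raw read counts per gene and mouse. The same deposited table holds FPKM values computed by the authors, which were used only for the order of levels between genes. It also holds group means and the fold change, p-value and FDR of the authors' own test, which were not used. The submitters' processing notes name fastp 0.18.0, Bowtie2 2.2.8, HISAT2, StringTie 1.3.1 and RSEM; the genome build and annotation are not given in the sources used here.

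Counts were filtered with filterByExpr, scaled by TMM and tested by edgeR 4.0.16 (quasi-likelihood, no covariate, R 4.3.3) with Benjamini-Hochberg adjustment over the 14005 genes tested and a threshold of 0.05. Standard errors and intervals were derived from the F statistic. DESeq2 1.42.0, limma-voom (limma 3.58.1), other scalings and filters, the replicate number as a block and leaving out each mouse were alternatives. The fit was tested on simulated data. It recovered 37 of 50 genes changed 1.5-fold, 37 of 50 at 2-fold, 48 of 50 at 4-fold and 50 of 50 at 8-fold. In the same run of 13858 genes there were 28 false calls. The run changed 200 genes, against 8246 called in the data, so it does not bear on the choice of scaling. Members and lists were chosen with earlier results of these data known. Named genes are the 10 members, up to 4 called genes with the largest change in each pathway list, Kitl, Il1rl1, Fcer1g and Tpsab1, up to 3 of the most abundant genes of each marker list, Pecam1 and Ptprc; others named were chosen after their values were seen. Mice were picked at random for sequencing per the study's methods, which used limma for its own test. With 3 mice a group, p-values set each group difference against the spread between these libraries. Depth ran from 21973426 to 26374292 counts per mouse. Gene positions come from GENCODE M21 and promoters from RefSeq. The values of 1 gene of the identity and granule list are not reported here.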

Additional observations from a re-analysis of the deposited data

How the results depend on the processing

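The 10 members kept their direction and side of the threshold with the replicate block, no filter on low counts, no TMM, DESeq2 and limma-voom. With a fold change of at least 2 required as well, 2410 genes in all were called instead of 8246, 1 member (Hdc), 2 IgE signalling genes higher and 1 lower, and 2 genes of the stem cell factor and IL-33 axis higher and 0 lower. Scaled to the endothelial markers, the log2 fold change was -0.15 for Kit, -0.67 for Cpa3, -0.27 for Cma1, -0.20 for Mcpt4, -0.25 for Tpsb2, -0.28 for Fcer1a, -0.56 for Ms4a2, -0.93 for Mrgprb2 and -0.28 for Il33, since the markers themselves rose. With that scaling 1 member was called higher and 5 lower, and 3 and 5 of the identity and granule list. The counts were 2 and 14 for IgE signalling and 1 and 7 for the stem cell factor and IL-33 axis. They were 1 and 1 for histamine handling and 5 and 0 for the lipid mediators. Of all genes tested 8.21% were called higher and 72.3% lower on that scale. Called genes were 10.2% higher, against 52.9% with TMM.

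Lists with few lower calls moved by a gene. The identity and granule list had 1 lower gene with the replicate block, no TMM, DESeq2 and limma-voom, and 0 to 1 with a mouse left out. Histamine handling had 1 lower gene with the replicate block, no filter and DESeq2, and 0 to 1 with a mouse left out. The stem cell factor and IL-33 axis had 1 lower gene with the replicate block and 0 to 2 with a mouse left out. The log2 fold change of Mrgprb2 ran from -0.18 without saline mouse 2 and -0.01 without PD mouse 2 to 0.27. The cause of these moves was not tested. Replicate numbers are not stated to pair the mice: same-numbered mice deviated from their group means with r of 0.19, 0.07 and -0.27, and the replicate block called 7909 genes.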
